A study of Mus musculus with 21 samples.

Results

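Erythroid gene expression was examined in sorted hematopoietic stem cells (HSC), the bone marrow cells from which all blood lineages arise. The genes were chosen by name: Gata1, Klf1, Epor, Tfrc, Hba-a1, Hbb-bt, Hbb-bs, Car1 and Car2. Of these 9 genes, 8 had a row in both HSC tables, which share 13399 gene symbols, and all 8 passed the filter on low values in every comparison. Hba-a1 was not analysed here, and its near-identical copy Hba-a2 is described beside the other globins as a supporting gene. All mice carried the MMTV-PyMT transgene, in which a mouse mammary tumour virus promoter drives the polyoma middle T antigen in mammary epithelium, so no group without the tumour transgene enters these comparisons. The 3 HSC groups were cells of sedentary mice at week 12, cells of physically active mice at week 12, and cells collected at week 14 from sedentary mice that had received a transplant of cells of a physically active mouse. Each group had 3 libraries. The labels call these biological replicates but do not say whether each came from a different mouse, so the p-values measure the spread between these samples. The kind of exercise, the age at its start, the sort gate and the cells and conditioning of the transplant are not given in the sources used here.

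Erythropoiesis begins when progenitors of the stem cell lineage commit to the red cell fate under the transcription factor Gata1, a zinc finger protein that binds GATA motifs. Gata1 works with Klf1, which binds CACC boxes in globin and red cell membrane genes. Developing red cells take up erythropoietin signals through the receptor Epor and iron through the transferrin receptor Tfrc, and they fill with hemoglobin and carbonic anhydrases. Gata1 also acts in megakaryocytes, mast cells and eosinophils, Tfrc is made by dividing cells in general, and Car2 is expressed in many tissues, so these 3 genes are not specific to red cells.

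Both HSC tables contain a column numbered 6. It is headed P3 (6) in the table of sedentary and active HSC and P2 (6) in that of active and transplant HSC. Both columns match active library 6 by that number, but their reads were unequal for 13105 of the 13399 genes in common. Active libraries 1 and 3 also stand in both tables, and their reads differed at 4 genes each. Both columns cannot be the same library. Across 13365 genes, the column in the table of sedentary and active HSC correlated at 0.967 to 0.980 with the transplant libraries, at 0.942 and 0.962 with active replicates 3 and 1, and at 0.928 to 0.942 with the sedentary libraries. The column in the table of active and transplant HSC correlated at 0.984 to 0.986 with the sedentary libraries, at 0.977 and 0.979 with active replicates 1 and 3, and at 0.952 to 0.962 with the transplant libraries. Neither column was thus most like the other active libraries, which bears on every active value below. Each comparison with active HSC uses the column of its own table, and the value with the other column is given beside it. Depth differed within each group: replicate 3, whose library name contains letters, held 58500940 to 72417315 recovered reads, and the libraries named by a number alone held 16406889 to 24574563. The stem cell markers Kit, Cd34, Procr, Hlf and Mecom were detected in all 9 libraries, and 14 of 14 listed stem cell markers in the tables had reads in every one. Cd34 was at 17709, 17988 and 14287 normalized counts in sedentary and at 8391, 6882 and 5934 in transplant HSC.

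The start-site windows of 4 members are shown because Gata1 and Epor had the highest log2 fold changes of the members in active against sedentary and in transplant against sedentary HSC, and because the adult beta-globin copies Hbb-bt and Hbb-bs differed in level. The sequences are those RefSeq gives for the 250 bases before each gene's start in GRCm38.p6, written 5′ to 3′ on the strand of the gene. For the beta-globin genes, the stretch that the GENCODE M21 annotation counts as exon was left out. Capitals mark matches to GATA motifs (AGATAA or AGATAG or TGATAA or TGATAG), the CACC box (CACACCC) and E-boxes (CAGCTG or CAGATG), searched on both strands.
Gata1 (chrX:7967911-7968160, minus strand): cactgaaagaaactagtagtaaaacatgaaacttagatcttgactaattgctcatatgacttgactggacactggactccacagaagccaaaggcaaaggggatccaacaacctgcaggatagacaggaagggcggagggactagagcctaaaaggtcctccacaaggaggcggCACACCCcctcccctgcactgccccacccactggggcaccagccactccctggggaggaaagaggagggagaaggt
Epor (chr9:21963577-21963826, minus strand): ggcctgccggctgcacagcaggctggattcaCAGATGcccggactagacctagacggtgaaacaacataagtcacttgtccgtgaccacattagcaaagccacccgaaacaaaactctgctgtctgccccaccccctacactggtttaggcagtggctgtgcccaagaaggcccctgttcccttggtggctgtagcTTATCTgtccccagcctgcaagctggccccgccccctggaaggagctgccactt
Hbb-bt (chr7:103813997-103814173, minus strand): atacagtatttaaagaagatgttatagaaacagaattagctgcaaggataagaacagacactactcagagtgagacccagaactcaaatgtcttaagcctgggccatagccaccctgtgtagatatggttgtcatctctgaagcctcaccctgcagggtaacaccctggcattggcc
Hbb-bs (chr7:103828097-103828178, minus strand): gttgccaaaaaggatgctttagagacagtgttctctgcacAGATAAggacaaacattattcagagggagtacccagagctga
The Gata1 window held 1 CACC box, 76 bases before the start, and 0 GATA motifs. The Epor window held 1 GATA motif, 54 bases before the start, and 1 E-box. The full Hbb-bs window held 1 GATA motif, 210 bases before the start, and 1 CACC box that lies in the stretch not shown, while the Hbb-bt window held 0 motifs of any of the 3 kinds. Of 32851 windows of this length in the table, 26.5% held a GATA motif, 6.93% a CACC box and 25.5% an E-box. A match is a description of the letters and not evidence of binding.

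Levels across genes were compared as RPKM, recovered reads scaled to exon length and to the library's total, with exon lengths from GENCODE M21. Tfrc was the highest member, with a median of 114 RPKM over the 9 libraries (99.0 to 148), followed by Car2 with 29.0 (16.5 to 34.0). The ranges of these genes did not overlap each other or those of any other member. Hbb-bt, with a median of 6.76 RPKM (2.95 to 15.1), and Gata1, with 5.42 (1.62 to 13.1), overlapped widely. Klf1, Epor, Hbb-bs and Car1 had medians of 0.797, 0.553, 0.548 and 0.391 RPKM, and their ranges overlapped, so no order among them can be given. Slc4a1 encodes the band 3 anion exchanger of late red cell precursors. It was at 0 in 6 of the 9 libraries and at most at 9.91 normalized counts, the scale described next and not RPKM.

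The values by library below are normalized counts on 1 common scale, that is recovered reads divided by a median-of-ratios factor over all 10 HSC columns. In bulk RNA, fewer cells of a type and less RNA per cell cannot be told apart. Transplant and sedentary libraries did not overlap at 38.8% of all genes tested, with 20.3% higher in transplant HSC. This share stands beside each gene below.

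Gata1, the master transcription factor of the erythroid and megakaryocyte lineages (chrX:7959260-7978071, minus strand, mm10), was at 118, 136 and 326 normalized counts in sedentary HSC. It was at 204, 913 and 399 in active HSC, where 913 is the column 6 of the sedentary and active table, and the other column numbered 6 had 189. In transplant HSC it was at 932, 695 and 391. The transplant libraries were all above the sedentary libraries, and the active libraries spanned nearly the whole range. Replicate 3 was the highest library of the sedentary group and the lowest of the transplant group.

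Klf1, the partner factor that drives beta-globin transcription (chr8:84901928-84905291, plus strand), was at 22.9, 37.0 and 31.5 normalized counts in sedentary HSC. It was at 21.5, 36.6 and 39.2 in active HSC, with 41.8 in the other column numbered 6, and at 40.9, 35.5 and 32.3 in transplant HSC. The groups overlapped, and the whole span over 9 libraries was 1.90-fold.

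Epor, the receptor for erythropoietin (chr9:21958897-21963506, minus strand), was at 9.81, 7.05 and 31.0 normalized counts in sedentary HSC. The active libraries had 32.3, 88.8 and 29.7, and the other column numbered 6 had 17.5. The transplant libraries had 124, 67.3 and 44.9, all above the sedentary ones. These values rest on few reads, between 4 and 110 per library. As for Gata1, replicate 3 was the highest library of the sedentary group and the lowest of the transplant group.

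Tfrc, the transferrin receptor (chr16:32608920-32632794, plus strand), was at 18282, 19559 and 26742 normalized counts in sedentary, at 20656, 17953 and 27053 in active and at 21612, 19457 and 23805 in transplant HSC. The other column numbered 6 had 22386. Replicate 3 was the highest library in each of the 3 groups, and the groups overlapped. With a 1.51-fold span over all 9 libraries, Tfrc was the least variable member.

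Hbb-bt, an adult beta-globin gene (chr7:103812524-103813996, minus strand), was at 144, 138 and 74.5 normalized counts in sedentary HSC. It was at 78.9, 304 and 61.1 in active HSC, with 109 in the other column numbered 6, and at 309, 153 and 87.4 in transplant HSC. Replicate 3 was the lowest library in each of the 3 groups. Hbb-bs, the second adult beta-globin gene (chr7:103826534-103828096, minus strand), was at 1.64, 10.6 and 3.50 in sedentary HSC. The active libraries had 1.19, 18.3 and 17.4, with 1.35 in the other column numbered 6, and the transplant libraries had 18.4, 12.2 and 19.2. The transplant libraries all lay above the sedentary ones, on 10 to 47 reads against 1 to 7. Hba-a2, an alpha-globin gene, was at 4.91, 14.1 and 7.50 in sedentary, at 3.58, 38.1 and 20.7 in active and at 22.6, 28.2 and 20.4 in transplant HSC, with 6.74 in the other column numbered 6. Its transplant libraries also lay above the sedentary ones.

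Car1, a cytosolic carbonic anhydrase of red cells (chr3:14766216-14808368, minus strand), was at 1.64, 14.1 and 19.0 normalized counts in sedentary HSC. It was at 5.97, 0 and 41.7 in active HSC, with 10.8 in the other column numbered 6, and at 22.6, 3.67 and 40.9 in transplant HSC. The library at 0 allows up to 3 reads, counting error alone considered. Replicate 3 was the highest library in each group. Car2, another cytosolic carbonic anhydrase (chr3:14886273-14900770, plus strand), was at 2051, 2174 and 2398 in sedentary, at 1172, 1384 and 2429 in active and at 2095, 2042 and 1292 in transplant HSC, with 2180 in the other column numbered 6. The sedentary libraries lay close together, and the other groups spread below and around them.

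**Figure D1:**
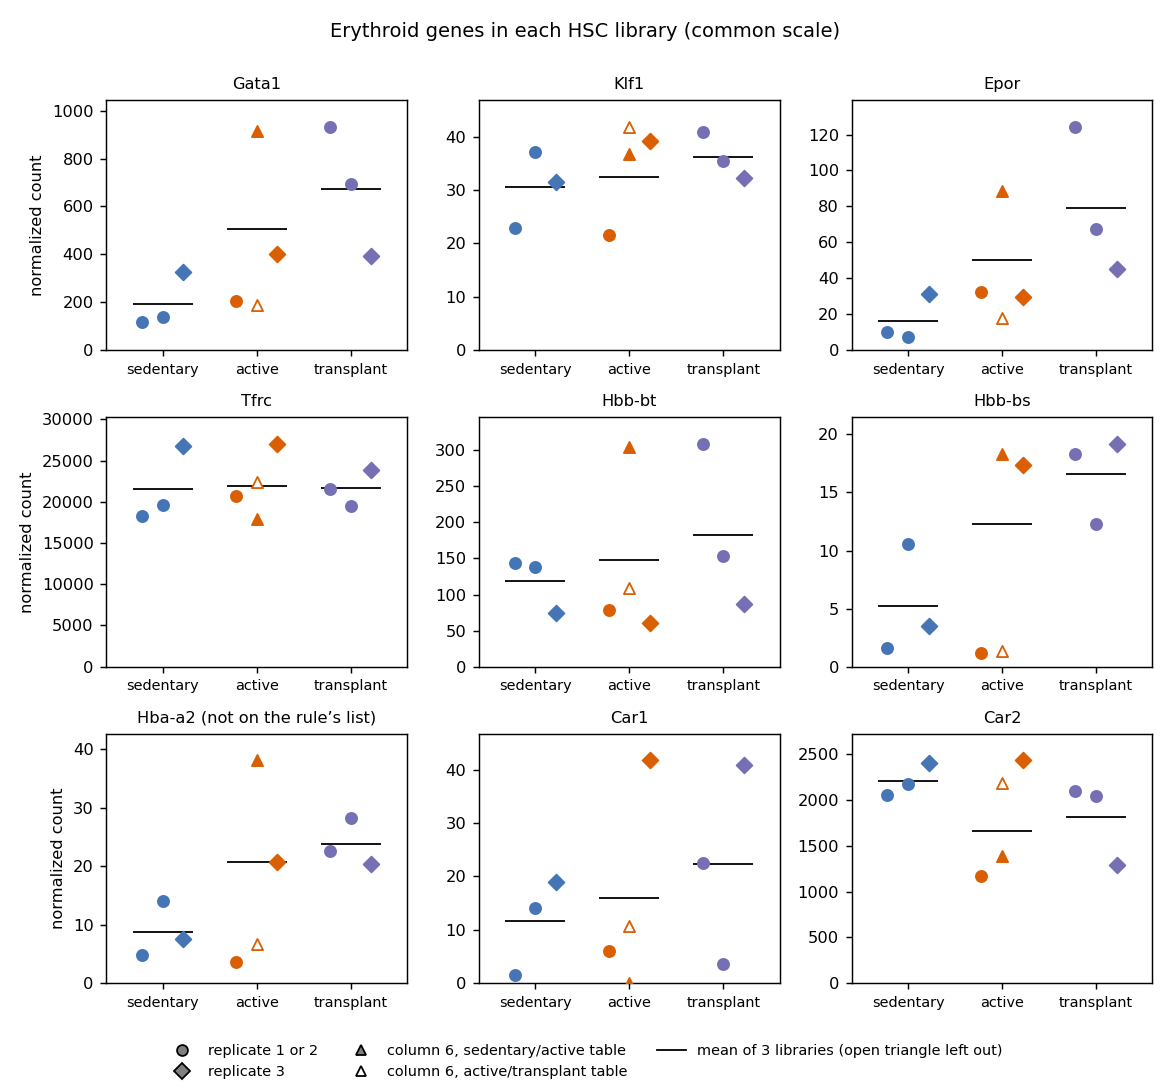
Normalized counts (y axis, from 0, common scale) of 8 erythroid members and of Hba-a2 in each HSC library, by group on the x axis. Points are libraries, diamonds mark replicate 3, triangles mark the 2 columns numbered 6 and horizontal lines are means of 3 libraries. The replicate 3 libraries of Gata1 and Epor lie within 326 to 399 and 29.7 to 44.9. The transplant libraries lie above the sedentary ones for Gata1, Epor, Hbb-bs and Hba-a2, and overlap them for the other genes shown. Over all genes tested, these groups did not overlap at 38.8%, with 20.3% higher in transplant HSC.

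The first comparison asked whether physical activity changed these genes in HSC. Epor and Gata1 had the highest folds, on libraries that overlapped between the groups, and no member passed the test. With limma on log2(value + 1), where an adjusted p-value under 0.05 was the threshold, 0 of 8 members and 0 of 13513 genes passed (0%), and edgeR's quasi-likelihood test on recovered reads also passed 0 genes. At an unadjusted limma p-value under 0.05 there were 1 of 8 members, Epor, and 1252 genes (9.27%), and with edgeR 1712 genes (12.7%). The groups overlapped for all 8 members, whereas they did not overlap at 19.7% of genes.

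On the scale of its own table, Epor was at 14.5 ± 11.8 in sedentary and 45.8 ± 30.5 in active HSC (SD, n = 3 each). This is a difference of 1.67 (SE 0.66) on the log2 scale, with a limma adjusted p-value of 0.475. Gata1 was at 175 ± 104 and 460 ± 335, a difference of 1.27 (SE 0.65) with the same limma adjusted p-value. Exchanging the column numbered 6 for the other one lowered these differences to 0.92 for Epor and 0.52 for Gata1. Car2 had a log2 fold change of -0.48 (95% confidence interval -1.19 to 0.23), and Tfrc and Klf1 of 0.023 (-0.54 to 0.58) and 0.069 (-0.66 to 0.80). Hbb-bs and Car1 had intervals of -1.64 to 3.29 and -4.11 to 3.22, which do not limit a change of several fold in either direction. Hbb-bt had a log2 fold change of 0.00072, and -0.49 with the other column numbered 6. In the authors' deposited table, Gata1 and Epor had log2 fold changes of 1.39 and 1.69, turned here to active over sedentary, with adjusted p-values of 0.167 and 0.282.

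Transplant HSC were next compared with active HSC, where transplantation, the sedentary host and the step from week 12 to week 14 cannot be told apart. In this contrast 0 of 8 members passed the limma threshold, as did 7 of 13633 genes (0.0513%), or 0 genes with the replicate number as a block. edgeR also called 0 members. At an unadjusted limma p-value under 0.05 there were 2 of 8 members, Gata1 and Epor, against 17.8% of all genes. With the replicate block, which treats same-numbered libraries as pairs, 1 member was left there. Epor had an unadjusted limma p-value of 0.0178 and Gata1 one of 0.0741. For 1 of 8 members, Epor, all transplant libraries lay above all active libraries, and groups did not overlap at 25.2% of genes, 13.1% higher in transplant HSC. With the other column numbered 6, at 88.8 on the common scale, the Epor groups overlapped.

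In the values of this table, Gata1 was at 263 ± 118 in active and 668 ± 270 in transplant HSC (SD, n = 3 each), a difference of 1.34 (SE 0.43) on the log2 scale with limma adjusted p-value 0.230. Epor was at 26.4 ± 7.87 and 78.3 ± 40.7, a difference of 1.45 (SE 0.43) with limma adjusted p-value 0.213. With the other column numbered 6 these log2 fold changes were 0.59 and 0.70. DESeq2 on recovered reads called both genes, with adjusted p-values of 0.00724 and 0.0347, and 8.12% of all genes. The authors' deposited table gave them log2 fold changes of 1.35 and 1.58 and adjusted p-values of 0.00798 and 0.0386, and 7.92% of its genes had an adjusted p-value under 0.05. Hbb-bs and Hbb-bt had log2 fold changes of 1.92 (-0.22 to 4.06) and 0.98 (-0.23 to 2.19), and 0.93 and 0.49 with the other column numbered 6. Klf1, Tfrc, Car1 and Car2 had log2 fold changes of 0.13, -0.11, 0.13 and -0.060, with 0.19, -0.00057, 1.36 and 0.16 after the exchange of the column. These 2 comparisons share the active libraries 1 and 3, so the members' values in them are not independent.

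Transplant HSC were then set against sedentary HSC, a contrast that involves neither column numbered 6. It was computed from recovered reads of both tables, joined on symbols and scaled once over 6 libraries. Week, transplantation and the active donor differ together here. Gata1 and Epor were higher in all 3 transplant than in all 3 sedentary libraries, as was Hbb-bs, but 0 of 8 members passed the limma threshold, against 1553 of 13348 genes (11.6%, with 7.93% higher and 3.7% lower). At an unadjusted limma p-value under 0.05 there were 3 of 8 members and 31.7% of genes. The groups did not overlap for 3 of 8 members, all higher in transplant HSC, and for 38.8% of genes, 20.3% higher.

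Gata1 was at 192 ± 114 in sedentary and 668 ± 269 in transplant HSC (SD, n = 3 each), a log2 difference of 1.86 (95% confidence interval 0.64 to 3.08) at limma adjusted p-value 0.0650. Epor was at 15.8 ± 13.0 and 78.3 ± 40.6, a log2 difference of 2.38 (0.85 to 3.90) at limma adjusted p-value 0.0616. Hbb-bs was at 5.20 ± 4.69 and 16.5 ± 3.77, a log2 difference of 1.74 (0.39 to 3.10) at limma adjusted p-value 0.0947. edgeR called Gata1 and Epor, with adjusted p-values of 0.0195 and 0.0347, as it called 19.2% of all genes. DESeq2 called the same 2 members, with 5.62e-05 and 0.00405, and 23.9% of all genes. Neither tool called Hbb-bs, with adjusted p-values of 0.0997 in edgeR and 0.167 in DESeq2. Car1, Hbb-bt and Klf1 had log2 fold changes of 0.84 (-1.86 to 3.55), 0.49 (-0.77 to 1.75) and 0.26 (-0.24 to 0.77). Tfrc had 0.022 (-0.43 to 0.47), the narrowest interval of the members, and Car2 had -0.32 (-0.85 to 0.22).

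The values of Gata1 and Epor were next read separately in the deeper replicate 3 libraries and in the others. In replicates 1 and 2, the mean transplant level of Gata1 was 6.42 times the mean sedentary level, whereas in replicate 3 the ratio was 1.20. For Epor these ratios were 11.4 and 1.45. Over the 3 groups, the replicate 3 libraries spanned 1.22-fold for Gata1 and 1.51-fold for Epor, and the 6 libraries of replicates 1 and 2 spanned 7.91-fold and 17.6-fold. Hbb-bs went the other way, with ratios of 2.50 in replicates 1 and 2 and 5.49 in replicate 3. In a limma fit of replicates 1 and 2 alone, Gata1 and Epor passed the threshold, with log2 fold changes of 2.66 and 3.31 and adjusted p-values of 0.0167 and 0.0253. Without sedentary replicate 3 they also passed, with log2 fold changes of 2.31 and 2.97 and limma adjusted p-values of 0.0349 and 0.0288. Without sedentary replicate 2, Hbb-bs passed instead, at 2.33 with a limma adjusted p-value of 0.0492. Of all genes, 237 passed in that fit, and 237 to 1674 over the fits with 1 library left out. The count of all genes with replicates 1 and 2 alone is not reported here, so the calls in that fit have no share of all genes beside them. Replicate 3 alone has 1 library a group and allows no test, and whether the effect differed between the library sets was not tested.

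**Figure D2:**
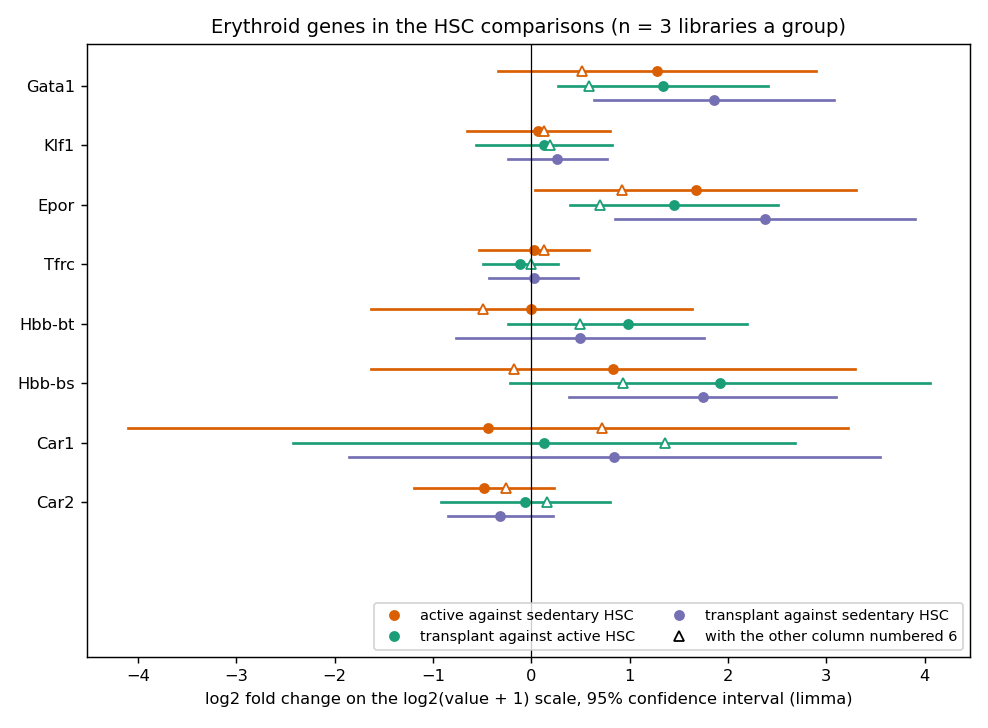
Log2 fold change on the log2(value + 1) scale (x axis) of 8 erythroid members in the 3 HSC comparisons, with limma 95% confidence intervals and 3 libraries a group. Open triangles are the values with the other column numbered 6. Gata1 and Epor have intervals above 0 in both transplant contrasts, at 1.34 to 2.38, while Tfrc and Klf1 stay close to 0. The intervals of Epor in active against sedentary HSC (0.041 to 3.31) and of Hbb-bs in transplant against sedentary HSC (0.39 to 3.10) also lie above 0. No member passed the limma threshold on adjusted p-values in any of the 3 comparisons.

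Other erythroid genes were followed in 8 supporting lists with 102 different genes, of which 82 were tested in active against sedentary, 84 in transplant against active and 82 in transplant against sedentary HSC. In active against sedentary HSC limma and edgeR called 0 of them and DESeq2 1, beside 1.9% of all genes. An unadjusted limma p-value under 0.05 was found for 6 (7.32%), beside 9.27% of all genes. In transplant against active HSC limma and edgeR also called 0 and DESeq2 11, beside 8.12% of all genes, and 17 (20.2%) had an unadjusted limma p-value under 0.05, beside 17.8%. In transplant against sedentary HSC, 5 rose and 2 fell past the limma threshold, 8.54% of those tested beside 11.6% of all genes. For genes of the lists, rose and fell mean passing this threshold here and below. By direction alone 58 were higher and 24 lower, and the median log2 fold change of those tested was 0.24. By edgeR 19 of the 82 were called, beside 19.2% of all genes, and by DESeq2 21, beside 23.9%.

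Of 11 heme synthesis genes, 1 rose. Alas1, the first enzyme of heme synthesis in most cells, went from 4006 ± 757 in sedentary to 14402 ± 2373 in transplant HSC (SD, n = 3 each), a log2 difference of 1.85 at limma adjusted p-value 0.0104. Alas1 was at 10379, 11766 and 5775 in active HSC on the common scale, and at 3710 in the other column numbered 6, which lies within the sedentary range of 3244 to 4772. The erythroid form Alas2 was not analysed here. Of 12 iron genes, 1 rose, Slc40a1, which encodes the iron exporter ferroportin. Its log2 fold change was 1.63 with a limma adjusted p-value of 0.0167. On the list of red cell membrane genes, 2 of 12 rose. The beta-spectrin gene Sptb rose by 1.95 and Slc2a1 by 0.56 on the log2 scale, with limma adjusted p-values of 0.0363 and 0.0287. Slc2a1 encodes a glucose transporter that is not specific to red cells. The list of 12 early erythroid genes had the highest median of the erythroid lists with more than 1 tested gene, 0.79, and 1 rose, Samd14, by 1.71 with a limma adjusted p-value of 0.0381. Samd14 encodes a protein that acts in Kit signalling.

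The list of 15 erythroid transcription factors also holds factors that act in other blood lineages, such as Spi1 and Runx1. On this list, 9 were higher and 6 lower by direction, and 0 rose and 2 fell past the limma threshold. Bcl11a, the repressor of fetal globin genes, which also acts in lymphoid development, fell by 1.00 on the log2 scale with a limma adjusted p-value of 0.0202. Tcf3, which encodes the E2A proteins, fell by 0.55 with a limma adjusted p-value of 0.0381. Tal1, the partner of Gata1 in the core erythroid complex, was at 3077 to 3451 normalized counts in sedentary and at 2701 to 3265 in transplant HSC. Of 13 genes of erythropoietin receptor signalling and 11 red cell enzyme genes, 0 passed. Jak2, the kinase bound to Epor, had a log2 fold change of 0.74 with a limma adjusted p-value of 0.0817, and Gpx1, a glutathione peroxidase, had 0.40 with 0.235. Hba-a2 had a log2 fold change of 1.43 with a limma adjusted p-value of 0.0568. Its groups did not overlap, as at 38.8% of all genes.

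Several marker lists of other cell types had medians farther from 0 than the erythroid lists in transplant against sedentary HSC. Of 14 megakaryocyte and platelet genes, 12 rose and 0 fell, with a median log2 fold change of 2.72, among them Pf4 by 3.56 and Vwf by 3.33. The summed level of this list was 9048 to 14428 in sedentary, 19601 to 71090 in active and 39795 to 88600 in transplant HSC, and 13486 in the other column numbered 6. Of 13 neutrophil genes, 12 rose, with a median of 3.25, and their summed level was 86688 to 128526 in sedentary and 363189 to 419546 in transplant HSC. Of 9 mast cell and basophil genes, 3 rose, with a median of 2.13 and summed levels of 2013 to 5411 and 6458 to 17697. Of 7 lymphoid genes, 5 fell, with a median of -4.18, from summed levels of 3763 to 4391 to 191 to 490. Of 10 listed macrophage genes of the erythroblastic island, 4 were tested, and 3 rose, Vcam1, C1qb and C1qc. The other, Cd163, was lower, with means of 13.3 in sedentary and 5.10 in transplant HSC. The sum of the 4 genes was 26.2 to 68.0 in sedentary and 215 to 318 in transplant HSC. Most of it was Vcam1, at 18.0 to 48.0 and 165 to 260. No tested gene of these lists was at 0 reads in every library of any group. Of 14 stem cell genes, 1 rose, Slamf1, and 3 fell, Hlf, Cd34 and Mecom. Gata1 is also made by megakaryocytes and mast cells, and the part of these lists in the Gata1 and Epor values was not tested.

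**Figure D3:**
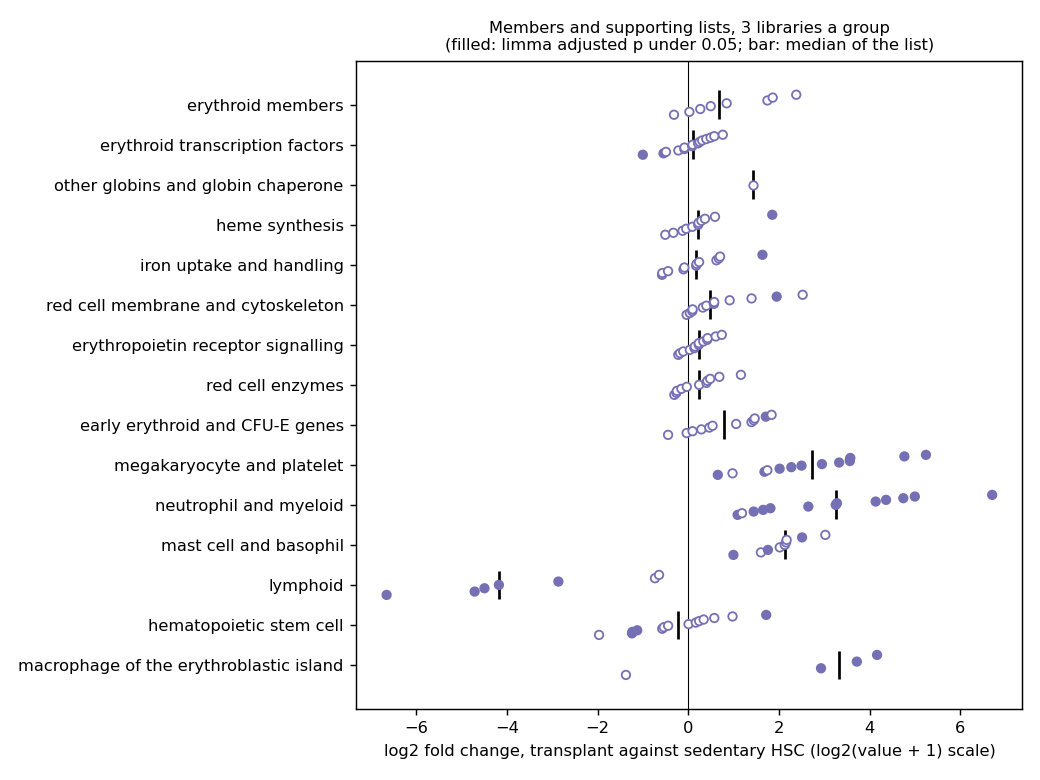
Log2 fold change in transplant against sedentary HSC (x axis, log2(value + 1) scale, 3 libraries a group) for the erythroid members and the genes of 14 supporting lists on the y axis. Each point is a gene, filled where its limma adjusted p-value was under 0.05, and bars are medians. The erythroid lists stay between medians of 0.09 and 1.43, while megakaryocyte and neutrophil genes have medians of 2.72 and 3.25 and lymphoid genes of -4.18.

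Members were compared with each other as correlations of log2(value + 1) over the 9 HSC libraries, which share the group and replicate structure described above and are given without a test. Gata1 and Epor had the highest correlation of the 28 pairs, 0.95. Klf1 and Hbb-bs had 0.91 and Tfrc and Car1 0.83. Gata1 and Tfrc had 0.081, and Gata1 and Klf1 0.64. The lowest value was -0.69, between Tfrc and Hbb-bt, which were respectively highest and lowest in replicate 3 of each group. The mean of the members, each centred on its own mean, was compared with 10820 other genes over the 9 libraries. Among the genes most like it were Inpp5a, an inositol phosphatase gene (0.941), Rbbp9 (0.936), Slc14a1, a urea transporter gene (0.934), and Lrrc8b, a volume-regulated anion channel subunit gene (0.925).

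The beta-globin genes Hbb-bt and Hbb-bs were last compared with the mammary tumours of the same series, where globin reads were more abundant. Summed over Hbb-bt, Hbb-bs and Hba-a2, globin reads had a median of 5.04 RPM (reads scaled to the library's total) in HSC (2.85 to 12.3, n = 9 libraries) and 335 in tumours (115 to 2532, n = 12 libraries). In HSC, Hbb-bt took a median of 94.3% of the reads of the beta-globin pair (77.9% to 98.9%). In tumours its share was 13.7% (11.6% to 18.7%). Every HSC library was above every tumour, and the other column numbered 6 had 98.8%. In HSC the lowest shares were those of active replicate 3, 77.9% (95% Wilson interval 71.5% to 83.2%), and transplant replicate 3, 82.0% (76.9% to 86.2%), while sedentary replicate 3 had 95.5% (91.0% to 97.8%). These intervals cover counting error only. Hbb-bt had a median of 9.75 reads per Hba-a2 read in HSC and 0.218 in tumours, and Hbb-bs had 0.481 and 1.30.

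The longest open reading frames of Hbb-bt and Hbb-bs are the same at 443 of 444 bases, with an identical stretch of 416 bases. Reads from one copy can therefore be counted to the other or be dropped, depending on how reads with several matches were treated, which is not given in the sources used here. The split between these genes is uncertain for that reason. Hba-a1 and Hba-a2 are the same at 428 of 429 bases. Tissue, extraction kit and table differ together between HSC and tumours and cannot be told apart.

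**Figure D4:**
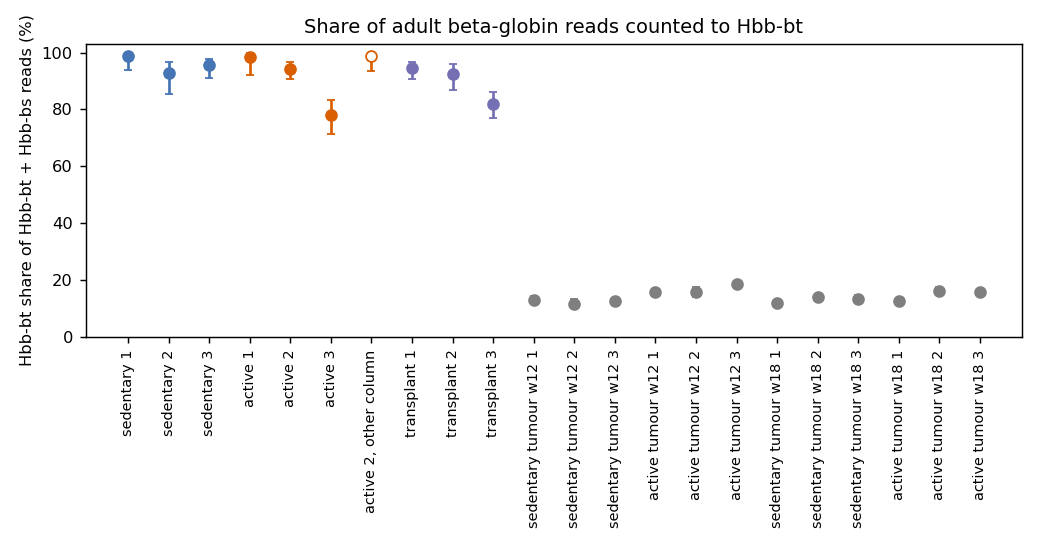
Share of Hbb-bt in the reads counted to Hbb-bt and Hbb-bs (y axis, percent) in each HSC library and each tumour (x axis), with 95% Wilson intervals; the open point is the other column numbered 6. HSC lie between 77.9% and 98.9%, and tumours between 11.6% and 18.7%.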

How the data were processed

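RNA of sorted HSC (9 libraries) and mammary tumours (12 libraries) was sequenced after preparation with a stranded mRNA kit, per the labels' protocols. The authors deposited 1 table per comparison with a normalized signal per gene and their own log2 fold changes, p-values and test score, and the label descriptions name DEBrowser. The genome build was mm10, per the submitters' processing notes. The aligner, counter and annotation are not given in the sources used here. In every column 100% of the deposited signal values were whole multiples of 1 step (within 0.05 reads), which gave recovered reads.

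The members and gene lists were chosen with earlier results of these data known. The rule named all 9 members in each comparison, of which 8 had values. From each list, genes past the threshold (at most 6, by smallest p) or else the 3 with the highest mean qualified for naming; Tal1, Slc4a1, Kit and Procr, and the common-scale levels of Alas1 and Cd34, were added after their values were seen. The globin comparison with tumours was also added then. Some genes that qualified are not reported here.

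Genes averaging at least 1 in either group were tested with limma 3.58.1 (R 4.3.3) on log2(value + 1), with Benjamini-Hochberg adjustment over all genes and a threshold of 0.05. Fold changes of low genes on this scale differed from those of the count tests in both directions. For Hbb-bs, limma gave 1.92 in transplant against active HSC, where edgeR gave 1.09 and DESeq2 1.21. In active against sedentary HSC limma gave 0.83, edgeR 1.32 and DESeq2 1.27. Recovered reads were tested with edgeR 4.0.16 and DESeq2 1.42.0 as alternatives. Other alternatives covered scaling, filter, pseudocount, options of limma, the threshold, the library set, each library left out, the other column numbered 6 and the replicate block. The limma and edgeR fits were tested on simulated counts. Large changes were planted there, only in genes of higher mean. The simulation thus does not cover smaller changes or members as low as Klf1, Hbb-bs and Car1. After subtracting group means, same-numbered libraries had correlations across genes of 0.105, 0.116 and 0.318 in transplant against active HSC. This met the rule for the replicate block, that every same-numbered pair exceed 0.1. Active replicate 1 and transplant replicate 2 also had 0.105, and the labels name no pairs, so a true pairing is not shown. In the other comparisons some same-numbered pair missed 0.1.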

Additional observations from a re-analysis of the deposited data

How the results depend on the processing

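In active against sedentary HSC, 0 members were called under every alternative run, while the count of all genes was 1 with pseudocount 0.1 and 257 with DESeq2. In transplant against active HSC, 2 members were called with DESeq2 and 0 under the other alternatives. The count of all genes there, 7 in the main analysis, was 1107 with DESeq2, 34 with trend and robust options, 17 at an adjusted p-value under 0.1, 1 with edgeR, 1 with the other column numbered 6, and 0 with replicates 1 and 2 alone, with a term for library name style and with the replicate block. It ran from 0 to 79 with 1 library left out, with 79 without active replicate 1, 22 without transplant replicate 3, 4 without active replicate 3, 2 without transplant replicate 1 and 0 without replicate 2 of either group. In transplant against sedentary HSC, 2 members were called with edgeR, DESeq2, trend and robust options, and replicates 1 and 2 alone, 3 at an adjusted p-value under 0.1, and 1, Epor, with a minimum mean of 10. With 1 library left out, 0 to 2 members were called. The count of all genes, 1553, was 2569 with edgeR, 3187 with DESeq2, 2778 with trend and robust options, 2955 at an adjusted p-value under 0.1 and 99 with the replicate block. It ran from 237 to 1674 with 1 library left out, with 298 and 237 without sedentary replicates 1 and 2 and 481 and 257 without transplant replicates 1 and 2. The replicate block changed no call of a member. The correlations of same-numbered libraries were 0.249, -0.032 and 0.170 in active against sedentary and -0.113, 0.156 and 0.049 in transplant against sedentary HSC. The rule for the block was thus not met in either comparison.

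Some small log2 fold changes reversed. In active against sedentary HSC, Hbb-bt became -0.0015 with pseudocount 0.1, Car1 0.49 with edgeR and 0.46 with DESeq2, and Klf1 -0.049 with replicates 1 and 2 alone. The other column numbered 6 gave Hbb-bt -0.49, Hbb-bs -0.18 and Car1 0.71 there. In transplant against active HSC, Car2 became 0.37 with replicates 1 and 2 alone and 0.16 with the other column numbered 6. With 1 library left out, active against sedentary values ran from -0.11 to 0.33 for Klf1, -0.14 to 0.19 for Tfrc, -0.71 to 0.45 for Hbb-bt and -1.75 to 0.88 for Car1. Transplant against active values ran from -0.17 to 0.30 for Klf1, -0.54 to 1.04 for Car1, -0.39 to 0.17 for Car2 and -0.20 to 0.0032 for Tfrc, and transplant against sedentary values from -0.085 to 0.19 for Tfrc and -0.061 to 1.76 for Car1. Gata1 and Epor kept positive log2 fold changes in all 3 comparisons under every alternative run, from 0.52 to 2.66 and from 0.70 to 3.31. The cause of these shifts was not tested, and low read numbers limit Epor, Hbb-bs and Car1.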
